A study of Mus musculus with 12 samples.

Results

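The 10 genes described here were Atf4, Atf3, Atf5, Ddit3, Trib3, Chac1, Asns, Phgdh, Psat1 and Sesn2, the transcription factor ATF4 with stress-response and serine synthesis genes that are linked to it. They were chosen by name as rows of the table of raw read counts, which lists 55536 mouse gene identifiers, and all 10 were among the 14499 genes with enough counts to be tested. No measured value entered the choice rule. The gene set was nevertheless proposed with earlier results of these data known.

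ATF4 is a basic leucine zipper transcription factor of the integrated stress response. When a kinase phosphorylates the initiation factor eIF2α, for example after amino acid shortage or protein misfolding in the endoplasmic reticulum, bulk translation slows while the ATF4 message is translated better, so that the amount of Atf4 RNA does not report the amount or activity of the protein. ATF4 binds composite C/EBP-ATF response elements and raises genes for amino acid uptake, serine and asparagine synthesis, glutathione turnover and, under lasting stress, cell death. In muscle the same genes are known to respond to mitochondrial stress and to changes in amino acid supply.

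The study asked how the plate coating changes the fiber type of differentiating muscle cells. C2C12 is a clonal mouse myoblast line, here carrying green fluorescent protein according to the methods, that fuses into myotubes in low-serum medium. RNA was sequenced from 3 samples each on uncoated plastic (control), Collagen I, fibronectin and Geltrex, a basement membrane preparation of mainly laminin, collagen IV and entactin, 12 samples in all. Every group received the same low-serum differentiation medium, which contained calf serum and added nonessential amino acids, a class that includes serine, glycine and asparagine. The day of RNA sampling was not given in the sources used here, and nothing stated that the 3 samples of a group came from separate cultures, so the p-values below measure only the spread between these samples, which may be technical.

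Libraries held 22520404 to 27351766 counts, and levels are given as CPM, the usual scaling of counts to library size, with edgeR's TMM factors. The share of counts from the mitochondrial genome was 4.56 to 11.47%, with the highest value in Collagen I replicate 3. Muscle identity was checked with 16 myotube genes, of which 15 were tested and none of those was at 0 throughout a group. Their summed level was 9721 to 11000 CPM in the control, 10210 to 10870 on Collagen I, 2683 to 3227 on fibronectin and 3923 to 4306 on Geltrex. All 15 were lower than the control on both fibronectin and Geltrex, and 15 of 16 proliferation genes were higher on both, with summed levels of 506 to 584 CPM in the control, 404 to 431 on Collagen I, 1060 to 1334 on fibronectin and 1124 to 1197 on Geltrex. These marker differences accompany every comparison below that sets fibronectin or Geltrex against the control or Collagen I. Between Geltrex and fibronectin, 7 of the 15 myotube genes were higher on Geltrex and 0 lower, with a median log2 fold change of 0.45, and 0 of 16 proliferation genes passed the edgeR test. Of all tested genes, 9.06% were higher on Geltrex than on fibronectin and 10.3% lower. Against the control, 17.1% were higher and 14.7% lower on fibronectin, and 16.4% and 16.6% on Geltrex. The part of either marker list in the results was not tested. In bulk RNA, fewer cells of a type and less RNA per cell cannot be told apart.

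Promoter sequence was available from RefSeq (GRCm38.p6, 250 bases before to 50 bases after the annotated start) for all 10 genes, in 12 windows, since Atf5 and Psat1 have 2 each. The RefSeq starts of Atf3 and Psat1 lie well inside the GENCODE spans given below, and sequence at the outer start of those spans was not searched. The windows were searched on both strands for the 8-base composite element TGATGCAA, for its looser form TGATGNAA, which includes every match of the first, and for the cyclic AMP response element TGACGTCA. TGATGCAA was found in the windows of Atf3, 110 bases before the start, and Chac1, 193 bases before it, against 0.895% of 32851 windows of all genes. TGATGNAA was found in 4 of the 10 genes, the former 2 plus Asns, 23 bases before the start, and Trib3, 14 bases after it, against 3.97% of all windows. The RefSeq start of Trib3, at 152344060 on the minus strand, lies outside the GENCODE span given below, so its match precedes the GENCODE start. For Asns the RefSeq start and the match both lie inside the GENCODE span, so the match follows the GENCODE start. TGACGTCA was found in 0 of the 10 and in 1.79% of all windows. A match is a description of these letters and was not tested as a binding site. The stretches before the start of Atf3 (chr1:191183341-191183583, minus strand) and Chac1 (chr2:119350992-119351228, plus strand), and 30 bases around the match of Asns (chr6:7693214-7693243, minus strand), are shown because these 3 genes had the clearest differences between coatings. Each runs 5′ to 3′ on the gene's strand with the TGATGNAA match in capitals, which in Atf3 and Chac1 lies on the opposite strand.
Atf3: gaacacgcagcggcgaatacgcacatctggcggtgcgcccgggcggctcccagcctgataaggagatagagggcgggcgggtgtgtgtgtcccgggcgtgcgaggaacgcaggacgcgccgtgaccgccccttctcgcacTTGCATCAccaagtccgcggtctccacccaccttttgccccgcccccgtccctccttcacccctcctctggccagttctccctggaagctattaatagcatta
Chac1: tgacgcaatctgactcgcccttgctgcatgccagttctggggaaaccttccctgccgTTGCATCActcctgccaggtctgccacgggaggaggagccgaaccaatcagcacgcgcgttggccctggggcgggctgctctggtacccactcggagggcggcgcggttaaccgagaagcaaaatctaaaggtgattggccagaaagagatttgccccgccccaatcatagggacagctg
Asns: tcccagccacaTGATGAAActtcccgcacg

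Corrected for exon length as well as library size (RPKM), Atf4 was the most abundant of the 10, with a mean level of 121 RPKM over the 12 samples, higher than 98.1% of the tested genes. Psat1 followed at 43.4 RPKM, Atf5 at 32.8, Phgdh at 25.9 and Asns at 19.2. Ddit3 lay at 13.5 RPKM and Atf3 at 9.23. The least abundant were Chac1 at 4.17, Sesn2 at 3.17 and Trib3 at 1.37 RPKM, so that the Trib3 level exceeded that of 28.2% of the tested genes.

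Members of the set were higher than the control on both fibronectin and Geltrex, with different genes leading on each. On fibronectin 6 of the 10 genes passed the test and all were higher, where 17.1% of all tested genes were higher and 14.7% lower. On Geltrex 8 of the 10 passed and all were higher, against 16.4% of all genes higher and 16.6% lower. On Collagen I 0 of the 10 passed in edgeR's quasi-likelihood test, against 0.200% of all genes higher and 0.917% lower. In DESeq2 0 of the 10 passed as well, where 462 of the 14499 genes passed in either direction. In edgeR 2 genes, Chac1 and Asns, had an unadjusted p of 0.05 or less, both with lower values than the control. The median log2 fold change of the 10 genes was 0.47 on fibronectin, 0.67 on Geltrex and -0.07 on Collagen I, beside medians over all tested genes of -0.02, -0.01 and -0.0031. Genes were called at a Benjamini-Hochberg adjusted p of 0.05 or less over all 14499 genes. The comparisons share the control samples and are given side by side for that reason.

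**Figure D1:**
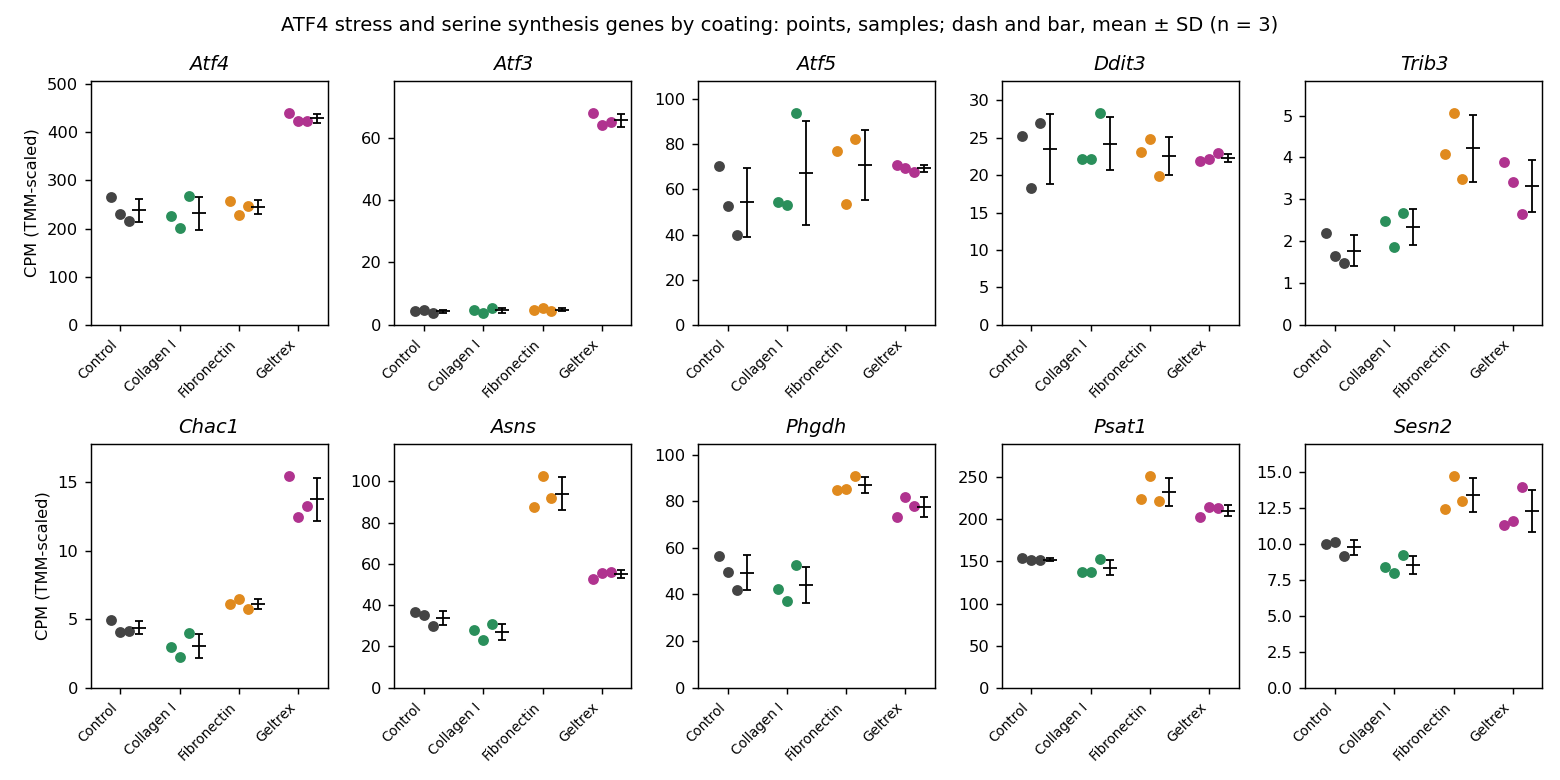
Level of each of the 10 genes in every sample, in TMM-scaled CPM on axes starting at 0, with the 3 samples of each coating as points and the mean ± SD (n = 3) beside them. Atf4, Atf3 and Chac1 were highest on Geltrex, whereas Asns was highest on fibronectin, with a mean of 94.0 CPM against 54.9 on Geltrex and 33.9 in the control.

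**Figure D2:**
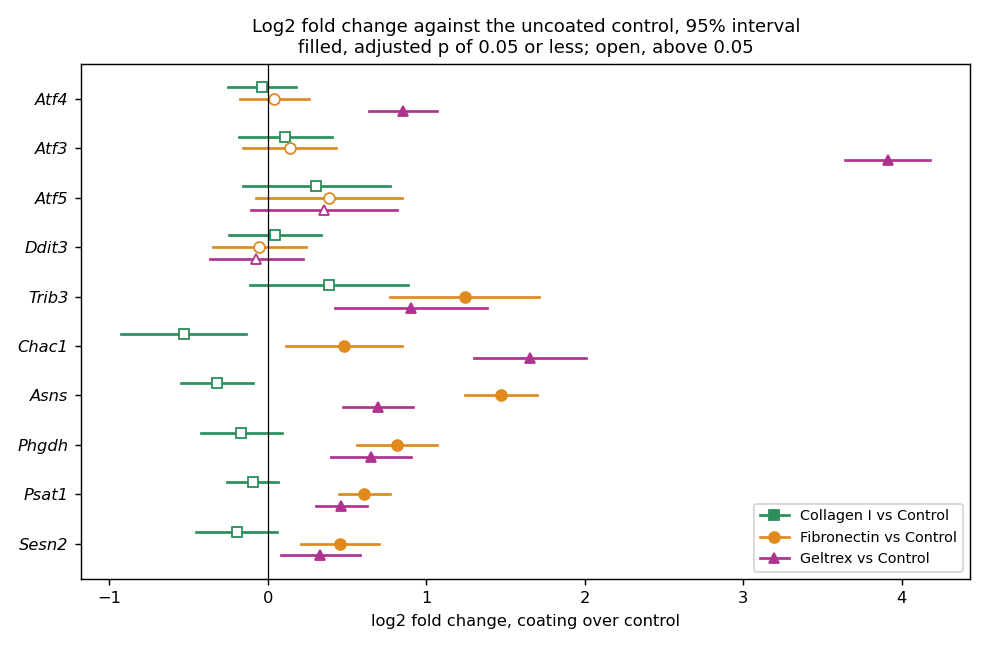
Log2 fold change of each gene on Collagen I (squares), fibronectin (circles) and Geltrex (triangles) over the uncoated control, with the 95% interval as a line. Filled symbols passed the test at an adjusted p of 0.05 or less: 0 genes on Collagen I, 6 on fibronectin and 8 on Geltrex.

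Among the transcription factors, Atf4 and Atf3 were higher on Geltrex and had overlapping levels on the other 3 surfaces. Atf4 (chr15:80255184-80257541, GRCm38) was at 265, 231 and 217 CPM in the control samples, at 227, 201 and 268 on Collagen I, at 258, 228 and 248 on fibronectin and at 441, 423 and 424 on Geltrex. All 3 Geltrex samples lay above the other 9, which overlapped. The Geltrex mean of 429 ± 10 CPM (SD, n = 3) was 1.81-fold the control mean of 238 ± 24.8, or 0.85 ± 0.10 (SE) on the log2 scale, with an adjusted p of 1.00e-05 in edgeR's test. On fibronectin the log2 fold change was 0.04, with a 95% interval of -0.17 to 0.26.

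Atf3 (chr1:191170296-191218039), a stress-induced factor of the same family that is also an immediate-early gene, showed the largest difference of the set. It was at 4.53, 4.70 and 3.82 CPM in the control samples, at 4.85, 3.86 and 5.48 on Collagen I and at 4.75, 5.36 and 4.31 on fibronectin. On Geltrex it was at 68.0, 64.1 and 64.9 CPM. The 9 samples off Geltrex overlapped, and every Geltrex sample was more than 10 times as high as any of them. The difference from the control was 15.04-fold (log2 fold change 3.91 ± 0.13, adjusted p = 1.36e-11, edgeR), and that from fibronectin was 13.7-fold (3.77 ± 0.12, adjusted p = 1.32e-11).

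Atf5 and Ddit3 did not pass the test in any of the 6 comparisons. Atf5 (chr7:44812256-44816658), a relative of ATF4 that is likewise regulated at translation, varied widely within groups. It ranged from 39.7 to 70.4 CPM in the control, from 53.0 to 93.9 on Collagen I and from 53.4 to 82.2 on fibronectin, but only from 67.8 to 70.7 on Geltrex. Its log2 fold change was 0.38 on fibronectin (95% interval -0.08 to 0.85) and 0.35 on Geltrex (-0.11 to 0.82), and both were called only in the fit with no filter on low counts (adjusted p = 0.00109 and 0.00318). Its exons share 82 bases with genes on the opposite strand, and the strand setting of the counting was not given in the sources used here.

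Ddit3 (chr10:127290774-127296288) encodes CHOP, the factor tied to cell death under lasting endoplasmic reticulum stress. Its levels were 25.2, 18.2 and 27.0 CPM in the control, 22.2, 22.1 and 28.3 on Collagen I, 23.1, 24.9 and 19.8 on fibronectin and 21.9, 22.1 and 22.9 on Geltrex. All 4 groups overlapped. The log2 fold change was 0.05 on Collagen I (95% interval -0.25 to 0.34), -0.05 on fibronectin (-0.35 to 0.24) and -0.07 on Geltrex (-0.37 to 0.22), so that the intervals leave room for changes of up to about that size in either direction. A second identifier that the annotation also names Ddit3 had 0 counts in all 12 samples. It shares 105 exon bases with the member on the same strand. On the opposite strand the member shares 68 exon bases with Mars and 13 with Gm4189, and the strand setting was not given.

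The stress-response targets Trib3, Chac1 and Sesn2 were higher on both fibronectin and Geltrex. Chac1 (chr2:119351229-119354381), an enzyme that degrades glutathione, was at 4.93, 4.04 and 4.16 CPM in the control and at 2.95, 2.23 and 3.97 on Collagen I. It was at 6.13, 6.49 and 5.75 CPM on fibronectin and at 15.5, 12.5 and 13.3 on Geltrex. The fibronectin and Geltrex samples overlapped neither each other nor the remaining samples. The increase over the control was 3.14-fold on Geltrex (log2 fold change 1.65 ± 0.17, adjusted p = 1.73e-06, edgeR) and 1.40-fold on fibronectin (0.48 ± 0.17, adjusted p = 0.0426). The call on fibronectin was lost in 7 of 12 fits that left out 1 library, namely without Control replicate 2 or 3, Collagen I replicate 1, Fibronectin replicate 1 or 2 or Geltrex replicate 1 or 3, with adjusted p-values over the 12 fits of 0.0158 to 0.116. On Collagen I the log2 fold change was -0.53 ± 0.19 (adjusted p = 0.186).

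Trib3 (chr2:152337422-152344032), a pseudokinase that binds ATF4 and dampens its activity, was the least abundant member. It was at 2.19, 1.65 and 1.49 CPM in the control, at 2.47, 1.86 and 2.67 on Collagen I, at 4.08, 5.07 and 3.49 on fibronectin and at 3.89, 3.42 and 2.66 on Geltrex. The fibronectin samples lay above all control and Collagen I samples, while the lowest Geltrex sample fell just short of the highest Collagen I sample. The increase over the control was 2.37-fold on fibronectin (log2 fold change 1.24 ± 0.22, adjusted p = 0.000548, edgeR) and 1.87-fold on Geltrex (0.90 ± 0.23, adjusted p = 0.00593).

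Sesn2 (chr4:132492032-132510501), a sestrin that restrains mTORC1 signaling when leucine is short, ranged from 9.17 to 10.1 CPM in the control and from 7.99 to 9.23 on Collagen I. It ranged from 12.5 to 14.8 on fibronectin and from 11.4 to 14.0 on Geltrex, both above every control sample. The fold changes were small, at 1.37 on fibronectin (log2 fold change 0.46 ± 0.12, adjusted p = 0.00733, edgeR) and 1.26 on Geltrex (0.33 ± 0.12, adjusted p = 0.0394). The Geltrex call was lost in 6 of 12 fits that left out 1 library, namely without any 1 of the 3 Control replicates, Collagen I replicate 1 or Geltrex replicate 2 or 3, with adjusted p-values over the 12 fits of 0.0318 to 0.199. With the replicate number as a block its adjusted p was 0.0525.

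The biosynthetic enzymes Asns, Phgdh and Psat1 were higher on fibronectin and Geltrex, and Asns was highest on fibronectin. Asns (chr6:7675169-7693254), which makes asparagine from aspartate and glutamine, was at 36.55, 35.0 and 30.1 CPM in the control and at 27.7, 23.0 and 30.7 on Collagen I. It was at 87.35, 102.8 and 91.9 on fibronectin and at 52.75, 55.7 and 56.2 on Geltrex. Every fibronectin sample lay above every Geltrex sample, and every Geltrex sample above the control and Collagen I samples. The increase over the control was 2.77-fold on fibronectin (log2 fold change 1.47 ± 0.11, adjusted p = 6.45e-08, edgeR) and 1.62-fold on Geltrex (0.70 ± 0.11, adjusted p = 9.96e-05). The Collagen I value was -0.32 ± 0.11, with an adjusted p of 0.164.

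Phgdh (chr3:98313170-98339990), which catalyses the entry step of serine synthesis from the glycolytic intermediate 3-phosphoglycerate, was at 56.5, 49.7 and 41.7 CPM in the control and at 42.2, 37.3 and 52.4 on Collagen I. It was at 84.8, 85.0 and 91.0 on fibronectin and at 73.2, 81.7 and 77.8 on Geltrex, so that the 2 pairs of groups did not overlap. The increase over the control was 1.76-fold on fibronectin (log2 fold change 0.82 ± 0.12, adjusted p = 9.08e-05, edgeR) and 1.57-fold on Geltrex (0.65 ± 0.12, adjusted p = 0.000522). Psat1 (chr19:15904678-15947337), the aminotransferase of the following step, was at 154, 151 and 151 CPM in the control, at 138, 138 and 153 on Collagen I, at 224, 252 and 222 on fibronectin and at 203, 215 and 214 on Geltrex. Its groups separated in the same way, with increases of 1.53-fold on fibronectin (0.61 ± 0.08, adjusted p = 1.93e-05) and 1.38-fold on Geltrex (0.47 ± 0.08, adjusted p = 0.000191).

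With a minimum change of 2-fold added, Trib3 and Asns remained on fibronectin (2.42% of all genes were higher by that rule) and Atf3 and Chac1 on Geltrex (4.15%). On Collagen I 0 members met the rule in either direction, where 0.0207% of all genes were higher by it. The shares given for this rule, here and below, count only genes that were higher.

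Set directly against each other, Geltrex and fibronectin differed in 4 of the 10 genes, 3 higher on Geltrex and 1 lower, where 9.06% of all tested genes were higher and 10.3% lower. Atf4 was 1.75-fold higher on Geltrex (log2 fold change 0.81 ± 0.10, adjusted p = 3.93e-05, edgeR), Atf3 13.7-fold and Chac1 2.25-fold (1.17 ± 0.16, adjusted p = 9.65e-05). Asns was 1.71-fold higher on fibronectin (Geltrex over fibronectin -0.78 ± 0.10, adjusted p = 7.00e-05). Atf3 and Chac1 passed the 2-fold rule, by which 2.26% of all genes were higher on Geltrex. For Phgdh, Psat1, Sesn2 and Trib3 the log2 values were -0.16, -0.14, -0.12 and -0.34. Their 95% intervals ran from -0.41 to 0.08, from -0.30 to 0.01, from -0.37 to 0.12 and from -0.78 to 0.10, all of them spanning 0.

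**Figure D3:**
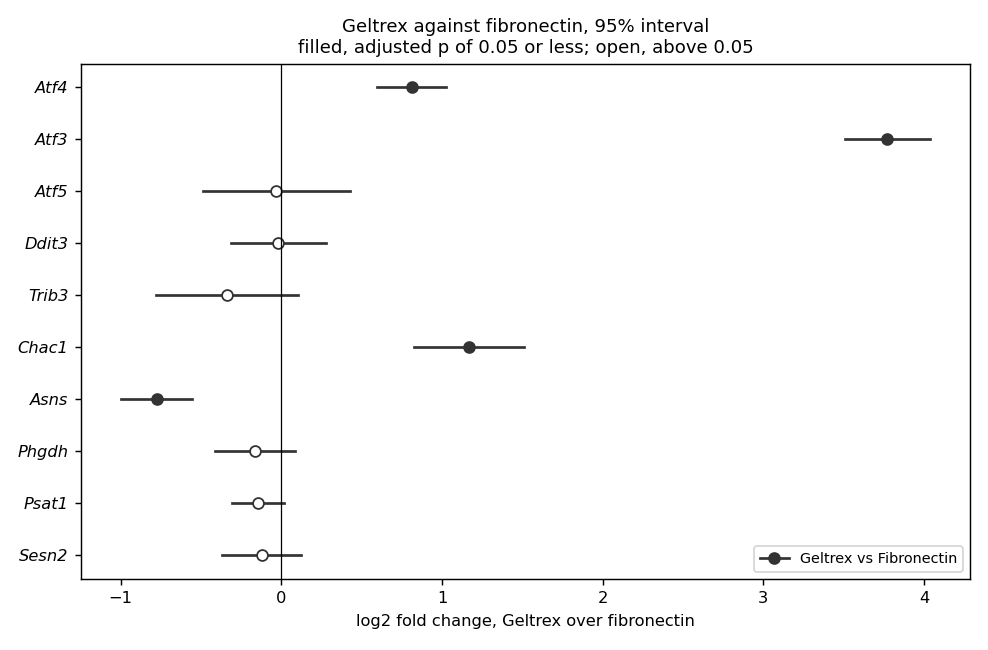
Log2 fold change of each gene on Geltrex over fibronectin with its 95% interval, filled where the adjusted p was 0.05 or less. Atf4, Atf3 and Chac1 lie to the right of 0 (higher on Geltrex) and Asns to the left at -0.78, while the intervals of the other 6 genes include 0.

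Against Collagen I in place of the control, the same 6 genes as against the control were higher on fibronectin, where 22.9% of all genes were higher and 22.1% lower. Asns was 3.47-fold higher (log2 fold change 1.79 ± 0.11, adjusted p = 7.71e-09, edgeR) and Chac1 2.02-fold (1.01 ± 0.18, adjusted p = 0.000387). These 2 passed the 2-fold rule, by which 3.60% of all genes were higher. On Geltrex 7 genes were higher than on Collagen I, beside 19.0% of all genes higher and 18.2% lower. They were Atf4, Atf3, Chac1, Asns, Phgdh, Psat1 and Sesn2. The 2-fold rule kept Atf3, Chac1 (4.54-fold, adjusted p = 1.35e-07, edgeR) and Asns (2.03-fold, adjusted p = 2.34e-06), where 4.56% of all genes were higher by it. Trib3 missed the threshold there with a log2 fold change of 0.52 ± 0.22 (adjusted p = 0.0774).

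Further genes of serine, glycine and one-carbon metabolism were described from a list of 10. On fibronectin 6 were higher than the control and 2 lower, with a list median log2 fold change of 0.53, and on Geltrex 4 were higher and 2 lower, with a median of 0.23. Psph, the phosphatase that completes serine synthesis, was 1.75-fold higher on fibronectin (adjusted p = 2.03e-05, edgeR) and 1.44-fold on Geltrex (adjusted p = 0.000794). Mthfd2, a mitochondrial folate enzyme, had 41.9 ± 1.27 CPM in the control, 27.2 ± 7.02 on Collagen I, 95.05 ± 10.98 on fibronectin and 51.8 ± 1.78 on Geltrex (SD, n = 3 each). It was 2.27-fold higher on fibronectin (adjusted p = 7.58e-06) and missed the threshold on Geltrex (1.24-fold, adjusted p = 0.0930). Shmt2, which passes the one-carbon unit of serine to folate in mitochondria, was 1.34-fold higher on fibronectin (adjusted p = 0.00313) and 1.11-fold on Geltrex (adjusted p = 0.237). The largest increase of the list on both was in Aldh1l2, another mitochondrial folate enzyme, at 3.40-fold and 1.78-fold. Gldc, a subunit of the glycine cleavage system, was 2.28-fold lower on fibronectin and 3.09-fold lower on Geltrex. Between the 2 coatings, 0 genes of the list were higher on Geltrex and 3 lower (Mthfd1l, Mthfd2 and Aldh1l2), with log2 values of -0.49, -0.88 and -0.93. Beside this list and those below stand the shares of all tested genes. Against the control, 17.1% were higher and 14.7% lower on fibronectin, and 16.4% and 16.6% on Geltrex. On Collagen I the shares were 0.200% and 0.917%. Between Geltrex and fibronectin, 9.06% were higher on Geltrex and 10.3% lower.

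The kinases and phosphatase subunits that set eIF2α phosphorylation formed a list of 8 together with Eif2s1, which encodes eIF2α itself, and Impact. Of the 8, 4 were higher and 1 lower on fibronectin and 3 higher on Geltrex. Neither Eif2s1 nor Impact was called against the control on these coatings. Eif2ak4 (GCN2, which senses uncharged tRNA) was 1.48-fold higher on fibronectin (adjusted p = 0.000258, edgeR) and 1.17-fold on Geltrex (adjusted p = 0.0757), and Eif2ak3 (PERK, the endoplasmic reticulum sensor) 1.40-fold on fibronectin (adjusted p = 0.000237) and 1.03-fold on Geltrex (adjusted p = 0.739). Eif2ak2 (PKR, which binds double-stranded RNA and is itself an interferon-stimulated gene) was 1.52-fold and 1.66-fold higher. Eif2ak1 (the heme-regulated kinase) had log2 values of -0.07 and -0.09. Ppp1r15a, the inducible phosphatase subunit GADD34 and an ATF4 target, had a control level of 44.5 ± 1.21 CPM, beside 31.4 ± 2.50 on fibronectin and 77.0 ± 4.46 on Geltrex (SD, n = 3 each). It was 1.42-fold lower on fibronectin (adjusted p = 0.000257) and 1.73-fold higher on Geltrex (adjusted p = 1.88e-06). The constitutive subunit Ppp1r15b was 1.39-fold and 1.60-fold higher.

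Other ATF4 target genes from a list of 18, of which 17 were tested, were mostly higher on fibronectin and mixed on Geltrex. On fibronectin 9 were higher and 0 lower, with a median of 0.33, and on Geltrex 4 were higher and 7 lower, with a median of 0.03. Between the coatings, 1 was higher on Geltrex and 11 were lower. Cth, which makes cysteine from cystathionine, was the most raised on fibronectin (3.49-fold, adjusted p = 0.00146, edgeR), at the low levels of 2.02 ± 0.61 CPM against 0.566 ± 0.31 in the control. Gdf15, a secreted stress cytokine, was the most raised on Geltrex, at 4.98 ± 0.69 CPM against 1.12 ± 0.24 in the control, 4.43-fold (adjusted p = 1.92e-06). Ddit4, an inhibitor of mTORC1 that also responds to hypoxia and glucocorticoids, ranged from 22.5 to 27.8 CPM in the control and from 23.4 to 30.2 on fibronectin but lay at 5.46 to 6.22 on Geltrex, 4.24-fold lower than the control (adjusted p = 4.51e-08).

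**Figure D4:**
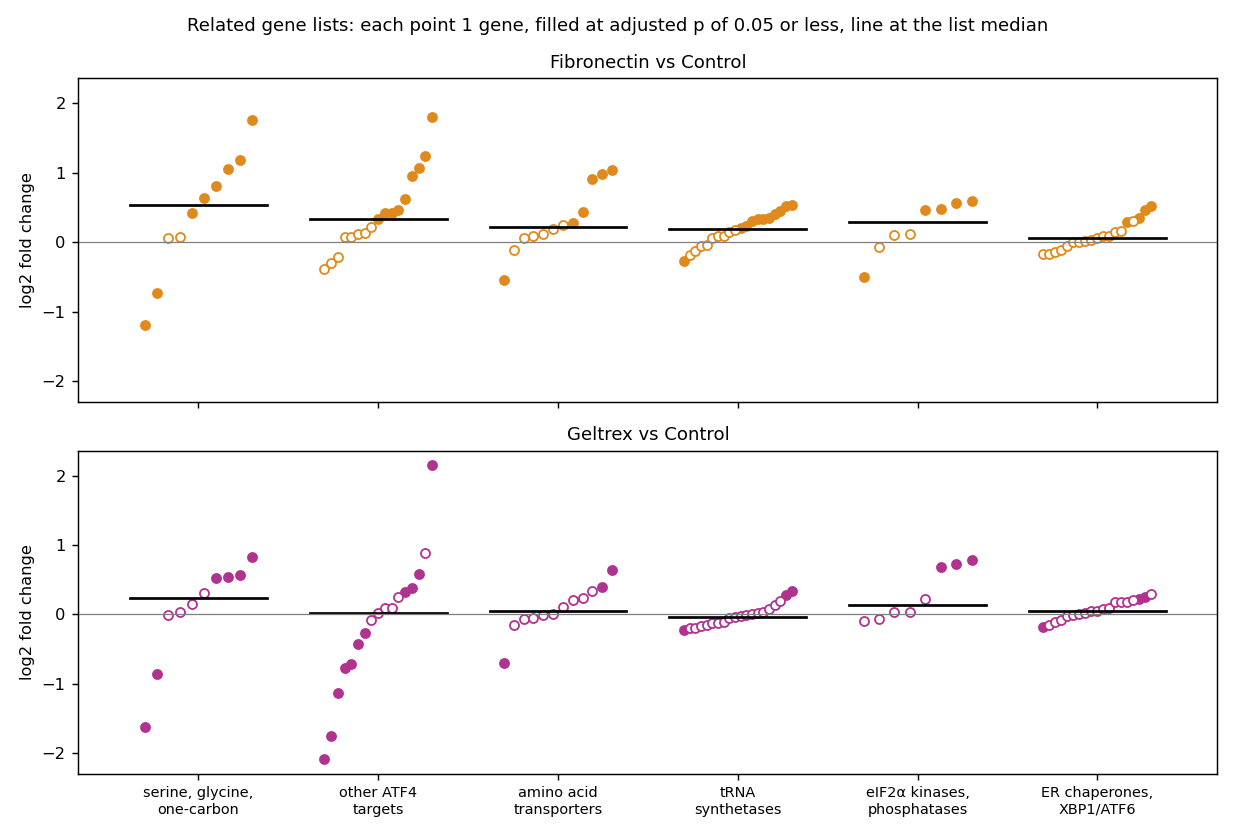
Log2 fold change of each tested gene in 6 related lists on fibronectin (top) and Geltrex (bottom) over the control, 1 point per gene in rank order, filled where the adjusted p was 0.05 or less, with the list median as a line. The other ATF4 targets spread from -0.38 to 1.80 on fibronectin and from -2.08 to 2.15 on Geltrex.

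Of 12 amino acid transporters, 5 were higher and 1 lower on fibronectin and 2 were higher and 1 lower on Geltrex. The Geltrex share is near the 16.4% of all tested genes that were higher there. Slc7a5, the light chain of the leucine transporter LAT1, was 1.97-fold higher on fibronectin (adjusted p = 7.43e-06, edgeR) and 1.32-fold on Geltrex (adjusted p = 0.0115). Slc7a11, the cystine transporter, was 1.36-fold and 1.55-fold higher (adjusted p = 0.0173 and 0.00141). Their common heavy chain Slc3a2 had log2 values of 0.19 and 0.20 and was not called. Slc7a1, an arginine and lysine transporter, had the largest increase on fibronectin, 2.05-fold, and Slc6a9, the glycine transporter GlyT1, was the gene lower on Geltrex, with a log2 value of -0.70. Slc43a1, the gene lower on fibronectin, stood at -0.55.

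Of 20 cytosolic aminoacyl-tRNA synthetases, 10 were higher and 1 lower on fibronectin, by small amounts that reached a log2 value of 0.54 in Iars, while Kars was lower at -0.27. On Geltrex 2 were higher (Vars at 0.33 and Wars at 0.28) and 1 lower (Gars at -0.22), below the 16.4% and 16.6% of all tested genes. Set against fibronectin, 7 of the 20 were lower on Geltrex, beside 10.3% of all tested genes. Of 19 chaperones and targets of the endoplasmic reticulum factors XBP1 and ATF6, 4 were higher on fibronectin, led by Edem1 at 0.52, and 2 were higher on Geltrex (Hsp90b1 at 0.24 and Hspa5 at 0.22), with 1 lower (Dnajb11 at -0.19). The fibronectin share is near the 17.1% of all tested genes that were higher there and the Geltrex share is below the 16.4%, and the list median was 0.06 and 0.05. Hspa5, the main chaperone of that compartment (BiP), had a mean of 942 CPM without a coating, 966 with fibronectin and 1100 with Geltrex. Xbp1 itself had log2 values of 0.08 and 0.18 and was not called.

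On Collagen I these lists held few calls: Mthfd2, Slc7a1, Slc1a4, Iars and Gars were lower than the control, Creld2 was higher, and 0 of the eIF2α list and of the other ATF4 targets passed. The Collagen I value of Mthfd2 was -0.63 and that of Iars -0.62.

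Close relatives of the members did not all share their pattern. Sesn1, a sestrin controlled by p53 and FoxO factors, was lower on both fibronectin (log2 fold change -0.30, adjusted p = 0.0297, edgeR) and Geltrex (-0.52, adjusted p = 0.000646), whereas Sesn3 was higher on both (0.48 and 0.31, adjusted p = 0.000829 and 0.0144). Trib1, a paralog of Trib3, had a control level of 11.8 ± 0.63 CPM, beside 9.75 ± 1.04 on fibronectin and 42.3 ± 1.09 on Geltrex (SD, n = 3 each), 3.58-fold higher on Geltrex. Chac2, the paralog of Chac1, was lower on Geltrex at -0.60, and Trib2 was lower on fibronectin at -0.39. Of 9 relatives 8 were tested, with 3 higher and 3 lower on fibronectin and 2 higher and 2 lower on Geltrex (Jdp2 stands in this list and among the other ATF4 targets).

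Immediate-early and interferon-stimulated genes also moved with Geltrex. Of 14 immediate-early genes, 7 were higher and 1 lower on Geltrex, led by Myc at 6.81-fold, and 2 were higher and 8 lower on fibronectin, with Fosl1 highest at 1.07 and Fos lowest at -1.56. Their summed level was 899 to 1003 CPM in the control, 777 to 946 on Collagen I, 773 to 957 on fibronectin and 1597 to 1684 on Geltrex. Of 16 interferon-stimulated genes 14 were tested, and all 14 were higher on Geltrex and 1 (Ifih1) on fibronectin, with summed levels of 69.7 to 79.3 CPM in the control, 73.9 to 93.9 on Collagen I, 77.3 to 91.6 on fibronectin and 238 to 320 on Geltrex, and 1 of the 16 was at 0 in all Collagen I samples. Their part in the Atf3, Atf4 and Chac1 values on Geltrex was not tested.

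The genes whose levels over the 12 samples most resembled those of Atf4, Asns and Phgdh were taken among 8915 tested genes with a mean of at least 10 CPM, by Pearson's r of log2 CPM. The 12 samples form 4 groups, so r mainly reports how the group means differ. Nearest to Atf4 were Arid5a, Ier5, Smad7, Cx3cl1 and Srf, with r from 0.985 to 0.971. Nearest to Asns were Mthfd1l (0.991), the transporter Slc7a5 (0.988), Col18a1, the mitochondrial phosphoenolpyruvate carboxykinase Pck2 and the proline synthesis enzyme Aldh18a1 (0.980). Nearest to Phgdh were H2afz, Rin1, the mitochondrial serine carrier Sfxn1, Wwp2 and Tagln2, with r from 0.974 to 0.964.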

How the data were processed

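The deposited table holds raw read counts per gene for 12 samples. According to the methods and the processing notes, the authors ran Trimmomatic on the paired-end reads, HISAT2 for alignment and featureCounts for counting. Versions, genome build, annotation and strand setting were not given in the sources used here. All 55536 identifiers matched GENCODE M21 (GRCm38), which gave symbols and positions. Genes passing filterByExpr (minimum count 10, minimum total 15), 14499 in number, were scaled by TMM and fitted with edgeR 4.0.16 in R 4.3.3 (quasi-likelihood test, 4 groups of 3, 8 residual degrees of freedom, 6 comparisons). Benjamini-Hochberg adjustment ran over all tested genes within each comparison, and genes were called at an adjusted p of 0.05 or less. The study used DESeq2 with relative log expression scaling. Alternatives were DESeq2 1.42.0, other scalings and filters, fits of the 2 groups compared, a replicate block and leaving out each library. Fits were tested on simulated counts. Replicates of Geltrex differed by a mean chi-square of 2.18 to 4.54 per gene, where sampling noise gives about 1, and those of the other groups by 7.73 to 65.1, so a fit with the Geltrex samples summed was added after seeing the data. The members, lists and named genes were chosen with earlier results of these data known. Named were all members, a fixed set of genes from the lists, the called gene with the highest and lowest fold change of each list against the control, and the 5 genes most like Atf4, Asns and Phgdh. The remaining genes named as called in the lists were picked after their values were seen.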

Additional observations from a re-analysis of the deposited data

Results flagged for a closer look

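Of 103 tested genes among the members and the related lists, 17 had log2 values against the control of opposite sign on fibronectin and Geltrex, passed the test on at least 1 of the coatings and also passed the direct test between them in edgeR. None of the 10 members was among these 17. The screen was not run over all tested genes, so no overall share stands beside the 17. In the direct test alone, 9.06% of all tested genes were higher on Geltrex than on fibronectin and 10.3% lower. For 4 of the 17, both coatings passed with opposite directions. Ppp1r15a was 1.29 higher on the log2 scale on Geltrex than on fibronectin (SE 0.08, adjusted p = 2.60e-08), with every Geltrex sample above and every fibronectin sample below the control range of 43.2 to 45.6 CPM. Trib1 was 2.12 higher on Geltrex than on fibronectin (adjusted p = 8.85e-10), while Cebpg differed by -1.24 (adjusted p = 4.41e-07) and Gars by -0.45 (adjusted p = 0.000270).

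In the other 13 genes 1 coating alone passed against the control. Ddit4 differed between Geltrex and fibronectin by -2.21 (SE 0.15, adjusted p = 4.97e-08), at 5.46 to 6.22 CPM on Geltrex against 23.4 to 30.2 CPM on fibronectin. The same difference was -0.56 for Cebpb, -0.93 for Vldlr and -0.50 for Gpt2 among the ATF4 targets. It was -0.98 for Slc1a4, -0.81 for Slc6a9 and -0.43 for Slc38a1 among the transporters, and -0.54 for Cars, -0.73 for Iars and -0.49 for Tars among the tRNA synthetases. Ern1 stood at -0.48, Trib2 at 0.53 and Crebrf at -0.47. The causes were not tested.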

How the results depend on the processing

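Of 60 member log2 fold changes, 60 kept direction and side of the threshold with DESeq2, with RLE scaling and with fits of the 2 groups compared. A minimum change of 2-fold left 2 members called on fibronectin and 2 on Geltrex against the control, 2 for fibronectin and 3 for Geltrex against Collagen I, and 2 between Geltrex and fibronectin. Chac1 on fibronectin missed the threshold with upper quartile scaling (0.45, adjusted p = 0.0728), with 10 or more counts in every sample (adjusted p = 0.0562) and with the Geltrex samples summed (adjusted p = 0.0684). Sesn2 on Geltrex missed it in the same settings (adjusted p = 0.0627, 0.0533 and 0.202) and with no filter (0.0763). Correlations of same-numbered samples ranged from -0.154 to 0.225. Their mean was highest between fibronectin and Collagen I, at 0.147 beside -0.0732 for different numbers. With 3 samples per group, these values cannot decide whether replicate numbers pair the samples. The replicate block gave counts of 0, 6 and 7 members called on Collagen I, fibronectin and Geltrex against the control. Beside these, 163, 4627 and 4763 of the 14499 genes were called. The block changed no other member call than Sesn2 on Geltrex (log2 fold change 0.33, adjusted p = 0.0525, edgeR). With upper quartile scaling, Atf3 between fibronectin and Collagen I (-0.036) and Atf5 between Geltrex and Collagen I (-0.0071) turned direction. The cause was not tested.

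Leaving out 1 library at a time, the number of members called was 0 for Collagen I, 5 to 6 for fibronectin and 7 to 8 for Geltrex against the control. Of the 14499 genes, 49 to 244, 3162 to 5302 and 3584 to 5345 were called in these fits. The member count was 6 and 7 for fibronectin and Geltrex against Collagen I and 4 between Geltrex and fibronectin. Beside it, 5146 to 6651, 4041 to 5614 and 1738 to 3471 of the 14499 genes were called. The direction turned in 15 of the 60 values, none of them called. On Collagen I against the control the range was -0.0054 to 0.24 for Atf3, -0.15 to 0.057 for Atf4, -0.012 to 0.54 for Atf5 and -0.11 to 0.16 for Ddit3. On fibronectin against the control it was -0.020 to 0.13 for Atf4 and -0.21 to 0.058 for Ddit3, and on Geltrex -0.23 to 0.040 for Ddit3. For fibronectin against Collagen I it was -0.11 to 0.15 for Atf3, -0.014 to 0.20 for Atf4, -0.068 to 0.40 for Atf5 and -0.17 to 0.033 for Ddit3. For Geltrex against Collagen I it was -0.10 to 0.37 for Atf5 and -0.18 to 0.012 for Ddit3. For Geltrex against fibronectin it was -0.20 to 0.089 for Atf5 and -0.10 to 0.055 for Ddit3. Trib3 was the least abundant member and had SEs of 0.21 to 0.23 on the log2 scale, and depth as a limit was not tested.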
